A study of Rattus norvegicus with 8 samples.

Results

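The data concern the terminal part of rat chromosome 7 in NR8383 cells, a line of alveolar macrophages that was established from the lung lavage of a normal rat. Members were the non-control array probes that the scanner files place on chromosome 7 of assembly rn4 from a fixed lower coordinate, just before position 114003519, to the end of the chromosome. The rule left out 5 genes of the region (Lgals1, Krt79, Csf2rb, Ncf4 and Rac2, 1 probe each). This gave 865 probes of the 45598 on the array, for 681 of its 35341 genes, and the last of them ends at 142943740. The region was chosen because its genes stood higher at high passage in this same comparison, so its changes are given as a description and no p-value is printed for a member.

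RNA was measured on 8 single-colour arrays, 4 from cells at passage 20 (P20) and 4 from cells at passage 200 (P200). The labels name no engineered change and no added agent. Both groups, part adherent and part in suspension, were grown in serum-containing DMEM with antibiotics and an antifungal, and were seeded at the same density before harvest. The labels call the 4 samples of a group biological replicates and do not say whether P200 descends from the P20 stock used here, and the line is a single isolate. Between 51.0% and 54.5% of non-control spots were well above background on each array, 0 were saturated, and all arrays lie on 1 slide read in 1 scan. Of 13 macrophage markers, 10 (among them Cd68, Csf1r, Ptprc and Spi1) were above background on all 8 arrays and Adgre1 and Cd163 on none. The epithelial genes Sftpa1, Sftpb, Sftpd, Epcam and Cdh1 and the lymphocyte genes Cd2, Cd79a and Ms4a1 were above background on none, and neither were the fibroblast genes Col1a1, Col3a1, Lum and Pdgfra and the endothelial genes Kdr and Tek. Of the 7 genes of the epithelial list 5 were above background on no array and 0 on all 8, and of the 6 of the lymphocyte list 4 and 0. The other members of the fibroblast and endothelial lists, Col1a2 and Dcn and Cdh5, Pecam1 and Vwf, were above background on all 8. None of these passed limma's test between passages (Col1a2 and Dcn had 1 unadjusted p under 0.05, the 3 endothelial genes 0). Itgam (-0.78) and Siglec1 (-0.56) of the macrophage list and Camp (-1.13) of the granulocyte list were lower at P200, the summed linear level of the macrophage list was 267 to 307 at P20 and 252 to 265 at P200, and their part in the results was not tested. In such bulk RNA, fewer cells that express a gene and less RNA per cell cannot be told apart.

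Genes that lie side by side on a chromosome need not share a function, and this stretch holds several unrelated ones. The genes that mark it here are Ep300, which encodes p300, a histone acetyltransferase and coactivator of many transcription factors, Xrcc6, which encodes Ku70, the DNA end-binding subunit that starts non-homologous end joining, and Srebf2, which encodes SREBP2, the membrane-bound factor that is cleaved when sterols are low and then switches on cholesterol synthesis. In macrophages SREBP2 sets sterol supply and p300 takes part in the induction of inflammatory genes. The type II keratin and Hoxc clusters lie in the same stretch and are normally active in epithelia and in the embryo.

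The 120 bases upstream of the annotated start of the label genes, and of the genes with the highest and the lowest change, are shown because these starts bracket the range of behaviour in the region. They come from RefSeq on assembly GRCr8, a different build from that of the probes, all on the plus strand, and capitals mark the motifs listed after them. Ep300 is at chr7:114987737-114987856, Xrcc6 at chr7:115423064-115423183, Srebf2 at chr7:115543187-115543306, Nr4a1 at chr7:134260018-134260137 and Pim3 at chr7:121832925-121833044.
Ep300: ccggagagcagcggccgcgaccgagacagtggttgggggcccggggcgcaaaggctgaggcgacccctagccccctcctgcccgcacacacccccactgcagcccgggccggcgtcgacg
Xrcc6: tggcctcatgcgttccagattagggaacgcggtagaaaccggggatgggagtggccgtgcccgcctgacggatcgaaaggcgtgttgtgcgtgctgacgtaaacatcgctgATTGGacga
Srebf2: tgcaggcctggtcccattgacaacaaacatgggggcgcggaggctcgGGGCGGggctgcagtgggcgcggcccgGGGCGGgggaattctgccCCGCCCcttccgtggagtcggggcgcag
Nr4a1: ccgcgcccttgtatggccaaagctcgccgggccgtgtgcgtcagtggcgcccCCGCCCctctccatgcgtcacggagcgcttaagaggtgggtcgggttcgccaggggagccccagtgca
Pim3: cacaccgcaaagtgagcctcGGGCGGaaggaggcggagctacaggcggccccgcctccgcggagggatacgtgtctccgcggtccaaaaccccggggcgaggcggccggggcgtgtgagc

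The motifs searched, on both strands, were the GC box GGGCGG, the CCAAT box CCAAT, the cAMP response element TGACGTCA, the TATA box TATAAA, the E-box CACGTG and the interferon-stimulated response element, and none overlaps another in the sequences shown. Srebf2 held 3 GC boxes, Nr4a1 and Pim3 1 each, Xrcc6 1 CCAAT box and Ep300 0 of these motifs in this window. Over the whole 250 bases upstream, 67.0% of the 191 region genes with an entry held a GC box, against 55.9% of 8773 measured genes off chromosome 7 and 32.4% of all 27457 promoters in the table. For the other motifs, values in the region, off the chromosome and in all promoters follow in that order. Among these, only the CCAAT box stood nearer to all promoters than to the genes off chromosome 7. A CCAAT box was found in 34.0%, 36.6% and 34.3%, a TATA box in 6.81%, 7.24% and 13.1%, and an E-box in 9.95%, 8.02% and 5.79%. The cAMP response element was found in 2.62%, 2.98% and 1.70% and the interferon-stimulated response element in 1.57%, 2.90% and 3.29%. Median GC content was 62.0% in the region and 59.2% off the chromosome. The highest and the lowest change thus belong to genes that both held a single GC box in the 120 bases shown.

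Levels below are log2 processed signal relative to the 75th percentile of the array, and a change is the P200 mean less the P20 mean of these levels, ± its SE (limma's moderated standard error, n = 4 arrays a group). Of the 681 genes, 356 were well above background on all 4 arrays of at least 1 group and 355 are represented by a probe of the region, while 325 were not measurable. Of the 355, 331 were above background on all 8 arrays, 4 on all P20 arrays and no P200 array, and 20 on all arrays of one group and some of the other. The median change of the 355 genes was 0.32, with quartiles of 0.17 and 0.45, against -0.001 for 14388 genes off chromosome 7. Throughout, that set is every gene the files do not place on chromosome 7. It includes genes without a position and genes on unplaced sequence of chromosome 7. A total of 310 of the 355 changes (87.3%) were above 0, against 49.7% off the chromosome. The median was 0.33 over the 331 genes above background everywhere and 0.25 over 677 genes taken with no background filter. Without the filter the genes off chromosome 7 had a median of 0.09, so the region exceeded them by 0.16, against 0.32 with it.

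The shift was seen on each P200 array. Relative to each gene's P20 mean, the median region gene stood at -0.05, -0.003, 0.01 and 0.05 on P20 replicates 1 to 4 and at 0.35, 0.27, 0.29 and 0.45 on P200 replicates 1 to 4. The P20 and P200 arrays do not overlap, and P200 replicate 4 is the highest. Genes off chromosome 7 also stood slightly higher on that array, at 0.06, and at -0.02 on each of the other P200 arrays. With the off-chromosome median subtracted, the P200 arrays stood at 0.37, 0.29, 0.32 and 0.39. Of the 355 genes, 293, 297, 302 and 315 were above their P20 mean on these arrays. The median SD between arrays of a region gene was 0.106 at P20 and 0.140 at P200, close to the 0.108 and 0.144 of the genes off the chromosome. Within row 1 of the slide (1 P20 and 3 P200 arrays) the median change was 0.36, within row 2 (3 P20 and 1 P200) it was 0.33, and with the row as a block 0.35.

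**Figure D1:**
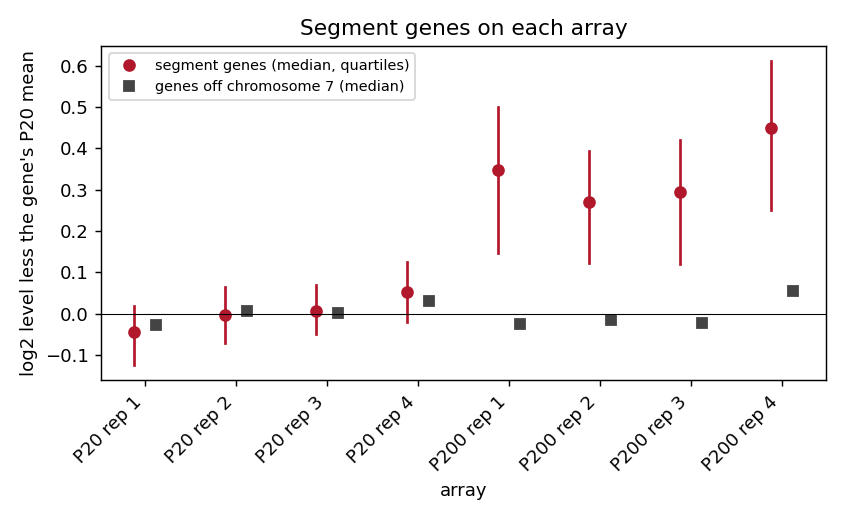
Level of the region's genes on each of the 8 arrays, as log2 level less the gene's P20 mean: red circles are the median over 355 genes with quartiles as lines, grey squares the median of 14388 genes off chromosome 7. The circles of the P200 arrays lie between 0.27 and 0.45 and those of the P20 arrays between -0.05 and 0.05.

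**Figure D2:**
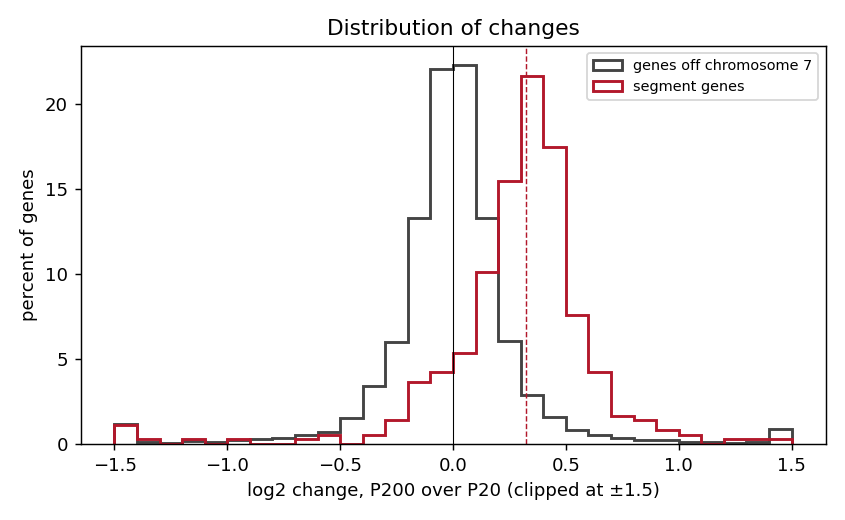
Distribution of log2 changes, P200 over P20, as percent of genes in steps of 0.1, with changes beyond 1.5 in the end bins. The region's genes (red, dashed line at their median of 0.32) are displaced to the right of the genes off chromosome 7 (grey, median -0.001).

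At an adjusted p under 0.05 in limma, 165 region genes were higher at P200 (5.92% of all 15311 genes were), 7 were lower (5.69% of all) and 183 did not pass. These counts rest on the comparison that chose the region and are given without a reading. Over all genes 907 were higher and 871 lower, and centring arrays on the median gave 726 and 415. All 4 P200 arrays lay above all 4 P20 arrays for 202 region genes (9.67% of all genes) and below them for 11 (9.84% of all). Without P20 replicate 3, the lower genes numbered 4, and with no background filter the higher ones numbered 45.

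Along the region the shift was of similar size. The first 41 genes, up to 115 Mb, had a median of 0.39, and the medians of the following stretches of 5 Mb were 0.23, 0.37, 0.34, 0.31, 0.37 and 0.30. The longest run of neighbouring measured genes with a change above 0 held 38 genes, with starts from 117914605 to 120268171. The lower median of the stretch from 115 to 120 Mb includes 13 genes between 115 and 116 Mb with a median of -0.05, of which 5 were above 0. That interval holds the apolipoprotein L cluster described below.

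The lower limit of the region is not where the shift begins. Just outside it, Tigd5 (0.96 ± 0.19 SE), Pycr3 (0.50 ± 0.16), Gfus (0.25 ± 0.08) and Zfp707l1 (0.48 ± 0.10) were also above 0, beside the first named genes inside it, Zfp707 (0.43 ± 0.09), Scrib (0.56 ± 0.08), Puf60 (0.33 ± 0.08) and Plec (0.64 ± 0.16). In stretches of 5 Mb along the whole chromosome, the 13 below 65 Mb, a position picked after the values were seen, had medians from -0.12 to 0.06. From 65 Mb on, 14 of 16 stretches had medians above 0.19. The exceptions were 80 to 85 Mb with a median of -0.55 over 8 genes and 105 to 110 Mb with -0.03 over 7. The part of the chromosome from 90 Mb to this limit, which holds Myc, had a median change of 0.29 over 91 genes, and the end of chromosome 5 had 0.05 over 354. The medians of the 20 other chromosomes lay between -0.04 and 0.02.

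**Figure D3:**
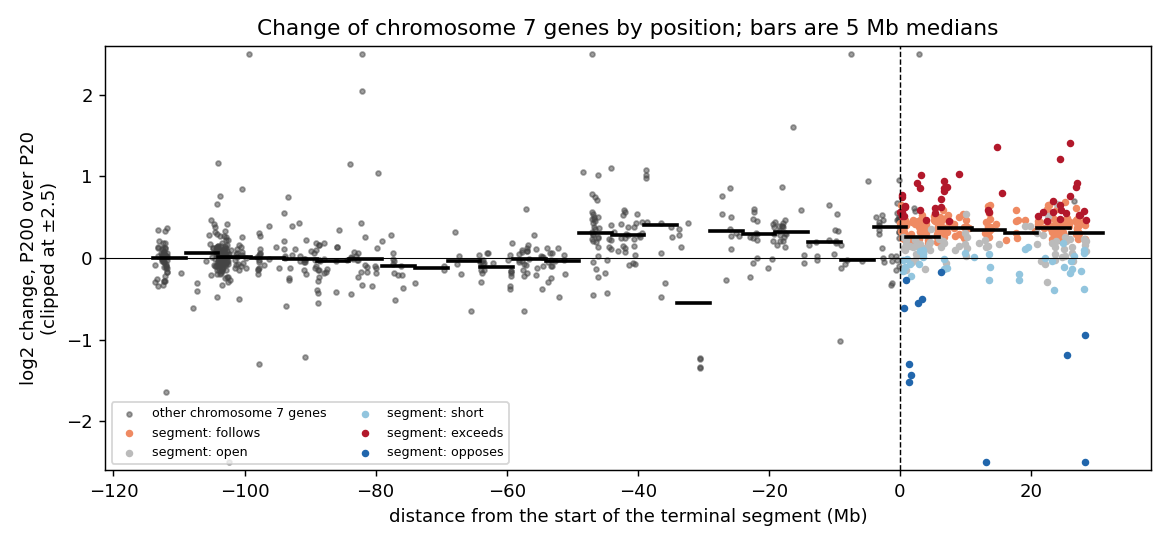
Log2 change of chromosome 7 genes against distance from the region's start in Mb, clipped at 2.5, with region genes coloured by how their 95% interval lies and black bars for medians of 5 Mb that include all chromosome 7 genes. Grey points to the right of the dashed line are the 5 left-out genes. The bars to the right lie between 0.26 and 0.38, and those at the left end between -0.12 and 0.06.

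The positions in the files could be checked through the order of genes in RefSeq. Of 277 region genes found there, 276 are on chromosome 7 and only Tbca is elsewhere, with a change of -0.15 ± 0.08. In the other direction, 7 measured genes lie in RefSeq between region genes although the files place their brightest probe on another sequence or leave it unmapped. The rule did not use those probes. All 7 changes were above 0, with a median of 0.39. Snu13, a component of the spliceosome and of box C/D particles whose brightest probe the files put on chromosome 4, was higher by 0.35 ± 0.06. It also has 2 measured probes inside the region, at 0.33 and 0.36, so it is not outside the rule. Larp4, an RNA-binding protein put on chromosome 18, was higher by 0.39 ± 0.06. Mettl7a, a methyltransferase-like protein, stood at 0.51 ± 0.06 and Ttll1, a tubulin polyglutamylase, at 0.66 ± 0.13. The files already assign both to chromosome 7, on sequence not placed along it. The remaining 3 were Npff (0.10 ± 0.13), Arfgap3 (0.15 ± 0.09) and the unnamed LOC102547300 (0.59 ± 0.21). They share arrays and groups with the region and are a description only.

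Each gene was then set against the regional median of 0.32 by the 95% interval of its own change, which is not adjusted for the number of genes. A total of 189 genes followed the shift (interval above 0 and holding the median, 8.5% of all genes lay so), 45 exceeded it (interval wholly above the median, 2.76% of all) and 12 opposed it (interval wholly below 0, 11.9% of all). A further 37 fell short (interval wholly below the median and not below 0, 53.8% of all), and for 72 the interval held both 0 and the median (23.1% of all). The last group was dim, with a median P20 level of -3.70 against -0.55 for the genes that followed. Of the genes that opposed the shift, 6 of 12 were above background on all 8 arrays, against 185 of 189 that followed and 43 of 45 that exceeded. The median change was 0.38 in the genes that followed, 0.63 in those that exceeded, -1.06 in those that opposed and -0.03 in those that fell short.

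Ep300, measured by a probe at 120008651 to 120008710, followed the shift. Its levels were 0.19, 0.06, 0.08 and 0.13 on the P20 arrays and 0.47, 0.43, 0.54 and 0.60 on the P200 arrays, without overlap, a change of 0.39 ± 0.06 or 1.31-fold. Xrcc6, further along at 120422863 to 120422922, varied little between arrays. Its levels were 1.77, 1.77, 1.82 and 1.81 at P20 and 2.11, 2.08, 2.09 and 2.17 at P200, a change of 0.32 ± 0.05 or 1.25-fold. Xrcc6 is itself the median gene of the 355, so its interval holds the regional median by construction. Srebf2, at 120580150 to 120580209, varied more. Its levels were 2.04, 1.92, 2.22 and 2.23 at P20 and 2.92, 2.32, 2.54 and 2.99 at P200, with P200 replicates 1 and 4 highest, a change of 0.59 ± 0.16. Its interval, from 0.23 to 0.94, held the regional median, except without P200 replicate 2. It is among the genes past the threshold with all arrays, but in only 1 of the 8 fits that left out an array, again that without P200 replicate 2. Nearest to the median after Xrcc6 were the plexin Plxnb2, a semaphorin receptor (0.32 ± 0.08), Polr2f, a subunit shared by the nuclear RNA polymerases (0.32 ± 0.07), the zinc finger gene Zbed4 (0.32 ± 0.09), Poldip3, which links mRNA export to translation (0.32 ± 0.11), and Zftraf1 (0.32 ± 0.09). P20 and P200 arrays overlapped for Zbed4 and Poldip3 and not for the others.

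Among genes above background on all arrays, Nr4a1 exceeded the shift by most. It encodes an orphan nuclear receptor that is an immediate early gene and is induced in activated macrophages. Its probe (140020442 to 140020501, printed 10 times on the array) read -3.67, -3.64, -3.70 and -3.66 at P20 and -2.26, -2.29, -2.30 and -2.18 at P200, a change of 1.41 ± 0.06 or 2.66-fold. Its P200 arrays lay far above its P20 arrays, which lay close together.

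Cpne8, a copine that binds phospholipids in the presence of calcium, read -4.15, -3.80, -4.10 and -3.84 at P20 and -2.30, -2.70, -2.65 and -2.82 at P200, a change of 1.36 ± 0.13. Gpd1, the cytosolic glycerol-3-phosphate dehydrogenase that links glycolysis to glycerolipid synthesis, was brighter and read -0.09, -0.02, -0.28 and -0.21 against P200 arrays between 0.93 and 1.20, a change of 1.21 ± 0.08 or 2.32-fold. Cyth4, a cytohesin of leukocytes that activates ARF GTPases, read -0.35, -0.35, -0.26 and -0.33 against 0.74, 0.47, 0.77 and 0.39, a change of 0.91 ± 0.10. In these genes all P200 arrays lay above all P20 arrays.

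Baiap2l2, which shapes plasma membrane protrusions, stood at 1.02 ± 0.09 and Pheta2, an endosomal partner of the phosphatase OCRL, at 0.95 ± 0.12. Upk3a, a uroplakin of the bladder lining, stood at 1.03 ± 0.22 on dim P20 values of -5.31, -5.16, -4.96 and -4.21. The retinoic acid receptor gene Rarg was dimmest, with -4.98, -5.74, -6.36 and -5.89 at P20 and -4.77, -4.95, -4.67 and -4.90 at P200, a change of 0.92 ± 0.25. Its interval lay above the regional median in only 1 of the 8 fits that left out an array, that without P20 replicate 1. The other 7 genes named here as exceeding the shift did so in all 8. With normexp and quantile normalization the changes were smaller, at 0.70 for Baiap2l2, 0.57 for Pheta2, 0.51 for Upk3a and 0.34 for Rarg. Nr4a1 (1.01), Cpne8 (0.96), Gpd1 (1.17) and Cyth4 (0.85) shrank too, and the regional median was then 0.26. The interval of Upk3a did not lie above the median with the series matrix. That of Rarg did not with normexp, with median centring or with the slide row as a block.

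Against the shift, the lowest change was that of Pim3, a serine/threonine kinase that promotes survival and cap-dependent translation. It read -3.75, -3.71, -4.05 and -3.71 at P20 and fell out of the measurable range at P200, with -8.37, -8.45, -8.16 and -7.81 and no array above background, which put it at least 6.17-fold lower on this scale. Gtsf1, a gametocyte protein of the piRNA pathway, read -4.13, -4.25, -4.70 and -4.26 and then -7.41, -6.54, -7.12 and -6.49, also with no P200 array above background, at least 4.23-fold lower. Each bound compares the P20 mean with a P200 mean in which values under the lowest well-above-background signal of the array were raised to it. Both genes had all P200 arrays below all P20 arrays. The size depended on the processing. With normexp and quantile normalization the change was -1.43 for Pim3 and -0.76 for Gtsf1, and with the series matrix, which has no background subtraction, -1.74 and -0.88, all smaller than these bounds.

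Lgals2, a galectin that binds beta-galactosides, did not pass the test. It was dim throughout, with -6.12, -5.68, -5.52 and -5.54 at P20 and -6.16, -6.57, -6.63 and -5.69 at P200, with overlapping arrays and no P200 array above background. The values of the series matrix gave a change of -0.07. Its interval lay below 0 in 2 of 8 fits with an array left out, those without P20 replicate 1 and P200 replicate 4. LOC100910885, a locus without a gene name, was also above background on no P200 array and at least 2.14-fold lower; it was picked by its value.

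Galnt6, which starts mucin-type O-glycosylation, read -2.63, -2.40, -2.62 and -2.48 at P20 and -3.77, -3.76, -3.96 and -3.40 at P200, a change of -1.19 ± 0.12. Slc39a4, the zinc importer ZIP4, was bright and tight, with -0.56, -0.47, -0.46 and -0.41 against -1.08, -1.08, -1.13 and -1.06, a change of -0.61 ± 0.06. Maff, a small Maf protein that pairs with NRF2-type factors, stood at -0.51 ± 0.10. Gpr84, a receptor for medium-chain fatty acids on myeloid cells, stood at -0.94 ± 0.24 with 3 P200 arrays above background, and at -0.37 with the series matrix. All 4 had their P200 arrays below their P20 arrays.

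A second probe of Galnt6 gave -0.41 ± 0.16, the widest gap between probes of one gene in the region, so the first 30 bases of the probes behind these departures are shown. The probes of Galnt6 lie at 139456883 to 139456942 (A) and 139457843 to 139457902 (B), both on the minus strand of rn4, and the Pim3 probe lies at 127171939 to 127171998 on the plus strand.
Galnt6 A: aggcatgaaggcacacgcttttagtctcgg
Galnt6 B: taggatccggtacctgcctgacatccaagg
Nr4a1: tccttccatgtgtacatagctgtcactcaa
Pim3: ggttgtataagttcaaaagtgtgaaatgtc
Of 68 region genes with more than 1 measured probe, all 68 had the same sign on every probe, with a median gap of 0.09 between the lowest and the highest, and Galnt6 was the only gene with a gap over 0.5. The 2 probes of Galnt6 therefore differ in the size of the change and not in its direction.

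The apolipoprotein L genes encode a family of lipid-binding proteins that interferon induces, and Apol9a and Apol7b varied widely among the P200 arrays. Apol9a read -2.21, -2.64, -1.99 and -2.37 at P20 and -5.25, -3.63, -3.08 and -3.35 at P200, a change of -1.52 ± 0.43. Apol7b, picked after its value was seen, read -4.33, -4.79, -3.88 and -4.55 and then -7.17, -5.88, -5.13 and -5.11, a change of -1.44 ± 0.44 with 3 P200 arrays above background. P200 replicate 1 was clearly the lowest in both, although the region's median gene stood high on it. Apol3l1, of the same family (-0.08 ± 0.16), and the neighbouring myoglobin gene Mb (-0.01 ± 0.14) fell short of the shift. On the far side of the cluster Myh9, the heavy chain of non-muscle myosin (0.30 ± 0.11), and Eif3d, a translation initiation factor subunit (0.45 ± 0.07), followed it.

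**Figure D4:**
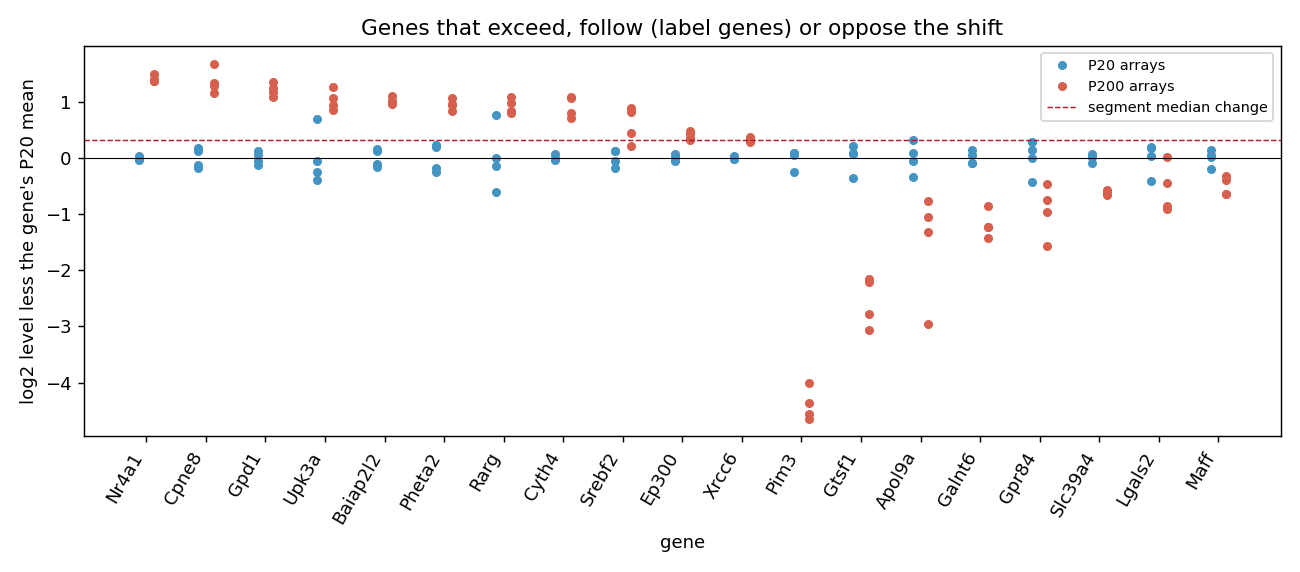
Levels on each array, as log2 level less the gene's P20 mean, of the named genes that exceed the shift (left), the label genes (middle) and the named genes that oppose it (right), with blue dots for the 4 P20 arrays and red dots for the 4 P200 arrays. The dashed line is the median change of the region (0.32). P200 values of Pim3, Gtsf1 and Lgals2 are not above background.

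Counts by role are limma calls that rest on the comparison that chose the region, where 46.5% of the 355 genes were higher and 87.3% above 0, against 5.92% higher and 50.9% above 0 of all 15311. Of 31 named members past the test, 20 kept the call in each of the 8 fits that left out an array. Rarg kept it only without P20 replicate 1. Gpr84 kept it only without P20 replicate 2 or P200 replicate 4, Letmd1 only without P20 replicate 1 or 4, and Recql4 only without P20 replicate 4 or P200 replicate 2. Nup50 kept it only without P20 replicate 2 or 4 or P200 replicate 3, Plxnb2 only without P200 replicate 1, 2 or 4, and Upk3a only without P20 replicate 4 or P200 replicate 1 or 2. Hdac10 lost it without P20 replicate 1 or 3 or P200 replicate 3 or 4, Polr2f without P20 replicate 1, 2 or 3, and Maff without P20 replicate 3.

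Of 23 measured genes of RNA processing and translation, 15 were higher in limma, 0 lower and 8 did not pass, with a median change of 0.39 against 0.004 over all 15311 genes. Maf1, the repressor of RNA polymerase III, exceeded the shift (0.57 ± 0.09), as did Cpsf1, the largest subunit of the cleavage and polyadenylation factor (0.52 ± 0.07). Maf1 did so in 4 of 8 fits with an array left out (not without P20 replicates 1 and 2 or P200 replicates 1 and 3) and Cpsf1 in 7 (not without P20 replicate 2). In the same list the RNA helicase Ddx17 (0.05) and the splicing factor Hnrnpa1 (0.10) fell short. Hnrnpa1 has 5 measured probes in the region, with changes from 0.10 to 0.26, and only its brightest was set against the median.

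Of 14 measured genes of DNA repair and cell division, 9 were higher, 0 lower and 5 did not pass, and all 14 changes were above 0 (median 0.36). Tubgcp6, of the gamma-tubulin ring complex, stood at 0.59 ± 0.09, the nucleoporin gene Nup50 at 0.50 ± 0.13, and Recql4, a DNA helicase, at 0.46 ± 0.12. Nup50 was above background on 3 P20 arrays, and the interval of Tubgcp6 lay above the median with all arrays but not without P200 replicate 2, with normexp, with the series matrix or with the slide row as a block.

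Of 24 measured chromatin and transcription genes, 12 were higher, 1 (Maff) lower and 11 did not pass, with a median of 0.37. Nr4a1 and Rarg, which exceeded the shift, lead this list. The deacetylase gene Hdac10 (0.64 ± 0.16) came next among those past the test, but its interval held the regional median, so it followed the shift. Like Nr4a1 and Rarg, the class IIa deacetylase gene Hdac7 (0.46), the serum response cofactor Mrtfa (0.61) and Atf7 (0.53) exceeded it. Atf4, the factor of the integrated stress response, stood at 0.19.

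Of 13 measured sterol and lipid genes, 9 were higher, 0 lower and 4 did not pass, with a median of 0.38 and a mean of 0.23. In this list 11 changes were above 0. Apol9a, described above, is among the genes that did not pass and opposed the shift (-1.52 ± 0.43). Beside Srebf2, Chkb, a choline kinase, stood at 0.48 ± 0.07 and Cyb5r3, the reductase that feeds electrons to lipid desaturation and sterol synthesis, at 0.48 ± 0.08. Of 15 measured mitochondrial genes, 8 were higher, 0 lower and 7 did not pass, with a median of 0.31. The inner membrane protein Letmd1 (0.69 ± 0.17), Mcat, of mitochondrial fatty acid synthesis (0.53 ± 0.09), and Cox14, an assembly factor of cytochrome c oxidase (0.48 ± 0.06), had the highest changes that passed. Cox14 exceeded the shift with all arrays but in only 1 of 8 fits with an array left out, that without P200 replicate 4.

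Leukocyte genes past the test lay on both sides of 0. Of 21 measured receptors, signalling and cytoskeletal genes, 8 were higher, 2 (Pim3 and Gpr84) lower and 11 did not pass. The median was 0.24, and 16 of the 21 changes were above 0. The mean of -0.01 includes Pim3 at -4.39, a value taken from P200 signals that were not above background. Gpr84 kept its call in 2 of the 8 fits that left out an array. Cyth4, Sharpin, of the linear ubiquitin complex (0.75), and Nckap1l, of the WAVE complex of blood cells (0.47), exceeded the shift. The iron transporter gene Slc11a2 (-0.11) and the haematopoietic factor Nfe2 (-0.38) fell short. Of the 31 keratin, Hoxc, Ly6 and aquaporin genes of the region, 3 were measurable and 0 passed the test, none of them with an unadjusted p under 0.05: Krt81 (0.07 ± 0.25), Krt86 (0.13 ± 0.20) and Krt83 (-0.14 ± 0.12). Hoxc, Ly6 and aquaporin genes were thus not above background on all arrays of either group.

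Partners of the label genes outside the region were not tested against it. Over all genes 11.6% passed the test and 23.8% had an unadjusted p under 0.05. Of 26 measured genes of the SREBP2 pathway outside the region, 0 passed limma's test, 2 had an unadjusted p under 0.05 and the median change was 0.07. The files place 1 of them, the squalene epoxidase gene Sqle (0.43 ± 0.26), on chromosome 7 before the region and give no position for Mvk, and without both the median was 0.06. The P200 arrays stood apart in this list. Relative to the P20 mean of each gene, its median was 0.67 on P200 replicate 1, -0.29 on replicate 2, 0.02 on replicate 3 and -0.003 on replicate 4. Replicate 1 was the highest P200 array for 25 of the 26 genes and replicate 2 the lowest for 23. The list median turned to -0.15 without replicate 1 and was 0.21 without replicate 2, so its direction rests on these arrays. Srebf2 itself was also lowest on replicate 2, and high on replicates 1 and 4. The smallest p belonged to Pmvk, the phosphomevalonate kinase (0.49 ± 0.14, adjusted p = 0.0595). That count was 1 without P200 replicate 2 and 2 without P200 replicate 1. Of 11 end-joining genes, 0 passed limma's test, 3 had an unadjusted p under 0.05, and the median was -0.08. Xrcc5, which encodes Ku80, the partner of Ku70, stood at -0.08 and the ligase cofactor Xrcc4 at -0.25 ± 0.08 (adjusted p = 0.0932). Of 12 acetyltransferases and p300 partners, 0 passed limma's test and 0 had an unadjusted p under 0.05. The smallest p there was that of the coactivator Ncoa3 (0.11 ± 0.06, adjusted p = 0.304), and Crebbp, the paralogue of Ep300, stood at -0.46 ± 0.51, with P200 replicate 1 at -2.74 and the other P200 arrays between -0.37 and -0.23.

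**Figure D5:**
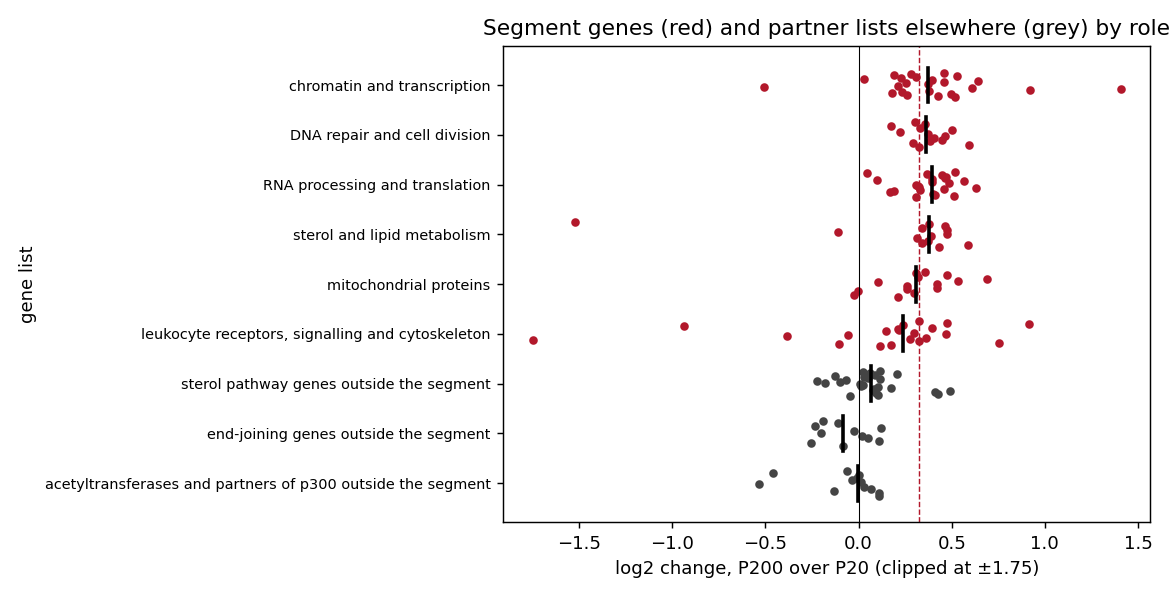
Log2 change, P200 over P20, of each measured gene by role list (without the tissue-restricted clusters), for lists inside the region (red) and partner lists outside it (grey), clipped at the axis ends, with black bars at the list medians and the dashed line at the regional median of 0.32. List medians inside the region lie between 0.24 and 0.39 and those outside it between -0.08 and 0.07.

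Upstream sequence is given by group of genes as a description with no test. A GC box was found within 250 bases upstream in 75.7% of 107 genes that followed the shift, 50.0% of 28 that exceeded it, 37.5% of 8 that opposed it, 61.1% of 18 that fell short and 63.3% of 30 whose interval held both 0 and the median. The median number of CG dinucleotides in that window was 19, 12.5, 5.5, 17 and 16.5 in the same order. The genes that followed were also brighter than those that opposed the shift, with a median P20 level of -0.55 against -3.52. By level over all genes, the regional median was 0.24 in the dimmest quartile, 0.31 and 0.37 in the middle ones and 0.33 in the brightest, and it was 0.32 and 0.33 for probes on the plus and the minus strand.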

How the data were processed

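The authors' deposited scanner files give spot intensity on a linear scale, made with Agilent Feature Extraction 11.0.1.1, per the submitters' processing notes and the headers, with background subtraction and no normalization between arrays. The deposited series matrix holds raw spot median intensity, and its P200 columns 1, 2, 3 and 4 equal scanner files 2, 3, 4 and 1. Outlier spots were left out, spots of a probe averaged, and log2 processed signal centred on each array's 75th percentile. Genes were named through RefSeq (GRCr8) by accession for 21472 probes and by symbol for 8862. A gene was represented by its brightest probe among those well above background on all 4 arrays of a group, 15311 genes in all. The passages were compared with limma 3.58.1 (R 4.3.3), two-sided and without covariates, and p-values were adjusted by Benjamini and Hochberg's method across the 15311 genes. The script was tested on simulated data. The members and lists were chosen with earlier results of these data known. Named genes were the 3 label genes, 8 that most exceeded and up to 8 that most opposed the shift, 6 nearest the median, the 4 largest bounds, and up to 3 per list. Intervals and SEs measure the spread between these arrays, and their number limits the precision. Genes present in several copies, such as the apolipoprotein L genes, were not shown to be separated by their probes. No DNA was measured. A few measured genes are not reported here.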

Additional observations from a re-analysis of the deposited data

Results flagged for a closer look

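Among 80 groups of 4 arrays of the named genes, 6 had a single array whose gap to the next, divided by the range of the group, was above Dixon's 95% critical value, where chance gives about 1 in 20. At P200 these were Cpsf1 (ratio 0.957, replicate 4 highest at 1.38) and Krt83 (0.839, replicate 4 highest at -3.18). At P20 they were Cyb5r3 (0.864, replicate 2 highest at 0.66), Zftraf1 (0.892, replicate 1 lowest at -0.68), Pim3 (0.880, replicate 3 lowest at -4.05) and Xrcc4 (0.858, replicate 3 highest at -3.46).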

How the results depend on the processing

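The regional median of 0.32 stayed above 0 under every setting run, from 0.25 with no background filter and 0.26 with normexp and quantile normalization to 0.38 with arrays centred on their median, and from 0.30 to 0.35 with single arrays left out. Genes off chromosome 7 moved too, to 0.09 with no filter and 0.06 with median centring, so the region's excess over them was 0.16 and 0.32 there, against 0.32 in the main setting and 0.26 with normexp. The higher genes numbered 121 to 153 with an array left out and 45 with no filter. The lower genes (7) numbered 4 to 8 with an array left out, 4 for a region starting 4 Mb further in and 3 with genes above background on all 8 arrays. Genes past the test overall numbered 1141 with median centring, 787 with no filter and 1215 to 1687 with an array left out. Past the test in the SREBP2 pathway were 1 gene each with normexp, with the series matrix and with the slide row as a block, and 0 to 2 with an array left out. The counts by interval were recomputed in settings added after the data were seen: with normexp 56 genes fell short and 45 held both 0 and the median, with no filter 412 held both, and with genes above background on all 8 arrays 6 opposed the shift. Of 675 values of single named genes, 563 kept their side of the threshold, 93 lost a call, 19 gained one and 0 changed sign, and the cause was not tested. In the scanner numbering, correlations of deviations between arrays of the same replicate number were 0.03, 0.14, -0.001 and 0.28. By these, 2 of 4 arrays were closest to their own number. With that number as a block 138 region genes were higher, 8 lower and 1476 of all genes past the test. The series matrix numbers the P200 arrays differently and its numbering was not tried. These values therefore cannot show whether the arrays are paired. Signals near background limit the dimmest genes.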
